A study of Mus musculus with 6 samples.

Results

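Lipid droplets are the stores of neutral lipid inside hepatocytes, and 10 genes that coat, enlarge or empty them were followed here in mouse liver RNA-seq: the perilipins *Plin2*, *Plin3*, *Plin4* and *Plin5*, the CIDE genes *Cideb* and *Cidec*, the triglyceride lipase gene *Pnpla2*, its regulators *Abhd5* and *G0s2*, and the hormone-sensitive lipase gene *Lipe*. They were chosen by name, as perilipins, CIDE genes, triglyceride lipases and their regulators, with earlier results of these data known. They are 10 of the 55487 genes in the count table. All 10 passed the filter on low counts and are among the 14046 genes tested. The mice were male C57BL/6J wild-type animals on normal chow, injected subcutaneously with GalNAc-siNC (3 mice) or GalNAc-siRnf10 (3 mice), and liver was collected when they were 17 weeks old. GalNAc is a sugar ligand of the asialoglycoprotein receptor on hepatocytes, siNC is a control siRNA on the same ligand, and siRnf10 targets *Rnf10*, which encodes a RING finger protein. Both groups therefore received an injected conjugate, and no uninjected mice are compared here. Each mouse gave 1 library, all libraries carry the same batch label, and the dose and injection days of this experiment are not given in the sources used here.

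A lipid droplet holds triglyceride and cholesteryl ester under a single layer of phospholipid, and perilipins sit on that layer and limit the access of lipases. PLIN2 is the main perilipin of hepatocytes, and PLIN5 is found in tissues that oxidize fatty acids and ties droplets to mitochondria. Lipolysis begins with ATGL, the product of *Pnpla2*, which is activated by CGI-58 (*Abhd5*) and inhibited by the G0S2 protein, and hormone-sensitive lipase (*Lipe*) then acts mainly on diglyceride. CIDE proteins fuse small droplets into larger ones, and in liver CIDEB also takes part in the lipidation of VLDL.

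Total counts were between 28430868 and 33058645 per GalNAc-siNC-treated mouse and between 26854377 and 31621131 per GalNAc-siRnf10-treated mouse. The smallest amount that this depth could show, 3 counts, was at most 1.12e-05% of a library, which covers counting error only. *Rnf10* itself had normalized counts of 3869, 4536 and 4040 with GalNAc-siNC and of 1738, 1820 and 1793 with GalNAc-siRnf10 (log2 fold change -1.22, edgeR adjusted p = 3.29e-09). GalNAc-siNC-treated mouse 1 stood apart from the other 2 control mice: the chi-square per gene was 27.8 and 27.1 in its pairs with them, 9.53 between those 2, and between 4.45 and 5.07 among the GalNAc-siRnf10-treated mice. Calls and list counts that changed when this mouse was left out are given both ways. The summed normalized count of 6 hepatocyte markers was between 1661500 and 1801300 with GalNAc-siNC and between 2440800 and 2519500 with GalNAc-siRnf10, and 4 of the 6 were higher. The sum of 6 Kupffer cell markers was between 4245 and 4924 with GalNAc-siNC and between 4576 and 4797 with GalNAc-siRnf10, with none called. The sum of 6 stellate cell markers was between 2471 and 2694 with GalNAc-siNC and between 3060 and 3155 with GalNAc-siRnf10, with 2 higher. For 5 sinusoidal endothelial markers it was between 1679 and 1685 with GalNAc-siNC and between 1742 and 1845 with GalNAc-siRnf10, with 2 higher. The hepatocyte, stellate and endothelial sums did not overlap between the groups, and the treated range of the Kupffer cell sum lay inside the control range. Of all single genes tested, 14.0% were called (adjusted p under 0.05), and in 32.8% the groups did not overlap. Each sum follows its most abundant markers, such as *Alb* among the hepatocyte markers (mean 1159040 with GalNAc-siNC and 1805570 with GalNAc-siRnf10). Among the stellate cell markers this was *Dcn* (mean 1457 and 1865). The log2 fold change was positive for 5 of the 6 hepatocyte, 3 of the 6 stellate and 4 of the 5 endothelial markers. It was -0.11 for *Apob*, -0.27 for *Lrat* and -0.26 for *Stab2*, none of them called. The part of these levels in the results below was not tested.

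Of the 10 lipid droplet and lipolysis genes, *Plin4* and *Plin5* were higher with GalNAc-siRnf10, *Plin2*, *G0s2* and *Lipe* were lower, and the other 5 did not pass the test. Calls rest on the quasi-likelihood test of edgeR, with p-values adjusted by Benjamini-Hochberg over all 14046 tested genes and a threshold of 0.05. By that rule 14.0% of all tested genes were called, 6.71% higher and 7.28% lower, beside 5 called of the 10. The 3 mice of each group did not overlap in 6 of the 10 genes, against 32.8% of all tested genes. Since the 10 genes were chosen with earlier results of these data known, these shares are a description only. The median log2 fold change was -0.01 over the 10 genes and 0.00 over all tested genes. A lower transcript level in whole liver can come from fewer cells of a type or from less RNA per cell, and these cannot be told apart in bulk samples.

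**Figure D1:**
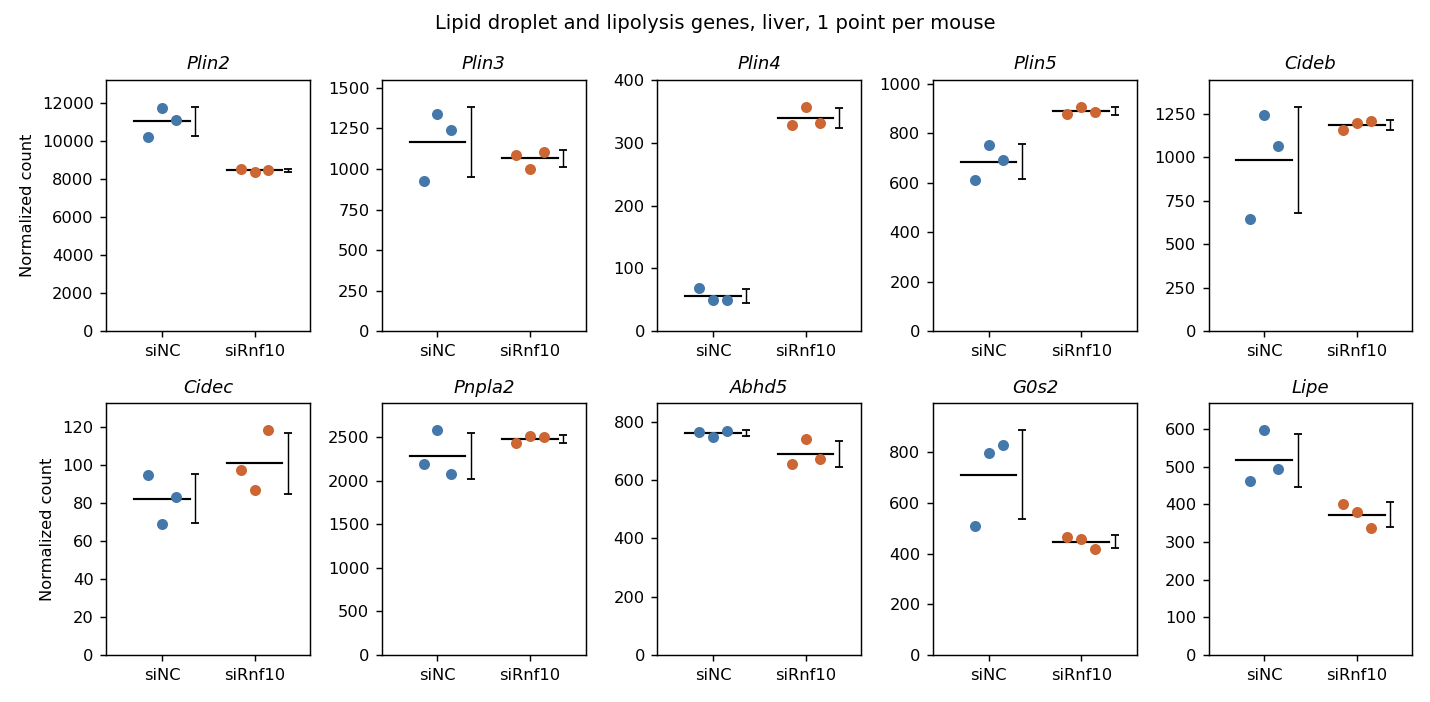
Normalized counts (vertical axes, from 0) of the 10 genes in each mouse of the GalNAc-siNC (siNC, blue) and GalNAc-siRnf10 (siRnf10, orange) groups; points are mice, horizontal lines group means and bars 1 SD (n = 3). *Plin4* lies between 49.4 and 68.8 with siNC and between 328 and 358 with siRnf10, while *Cideb* spreads from 643 to 1240 among the control mice.

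The perilipins did not move together. *Plin2* (ENSMUSG00000028494, chr4:86648386-86670060 of GRCm38, minus strand) had normalized counts of 10190, 11734 and 11104 with GalNAc-siNC and of 8525, 8370 and 8439 with GalNAc-siRnf10. All 3 treated mice were below all 3 control mice, and the treated mice lay close together (SD 77.5 against 776). The level changed by -23.3% (95% interval -29.7% to -16.3%, log2 fold change -0.38, SE 0.0599, edgeR adjusted p = 0.00029).

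*Plin4* (ENSMUSG00000002831) encodes a perilipin best known from adipocytes and muscle. Its normalized counts were 68.8, 49.5 and 49.4 with GalNAc-siNC and 328, 358 and 332 with GalNAc-siRnf10, from raw counts of 48 to 79 and of 290 to 374 reads. The groups were far apart, with the lowest treated mouse several times above the highest control mouse. The level was 6.02-fold higher (log2 fold change 2.59, 95% interval 2.26 to 2.92, edgeR adjusted p = 5.12e-09), which was the 16th largest of the 14046 tested genes by size of the log2 fold change.

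*Plin5* (ENSMUSG00000011305) had normalized counts of 611, 754 and 691 with GalNAc-siNC and of 877, 907 and 885 with GalNAc-siRnf10. Every treated mouse was above every control mouse. The level changed by 30.01% (95% interval 14.0% to 48.3%, log2 fold change 0.38, edgeR adjusted p = 0.00875). Without GalNAc-siRnf10-treated mouse 2 the log2 fold change was 0.36 and the edgeR adjusted p 0.055.

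*Plin3* (ENSMUSG00000024197), a perilipin that moves between cytosol and nascent droplets, had normalized counts of 925, 1339 and 1241 with GalNAc-siNC and of 1088, 1003 and 1103 with GalNAc-siRnf10. The groups overlapped because control mouse 1 was the lowest of all 6 mice. The log2 fold change was -0.13 (95% interval -0.39 to 0.12, edgeR adjusted p = 0.527). Without control mouse 1 it was -0.28 and passed the test (edgeR adjusted p = 0.00504).

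The exact two-sided permutation test on a single gene cannot go below p = 0.1 with 3 mice against 3. The exact permutation p was 0.1 for each of the 5 called genes and for *Abhd5*, and between 0.2 and 0.5 for the other 4.

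**Figure D2:**
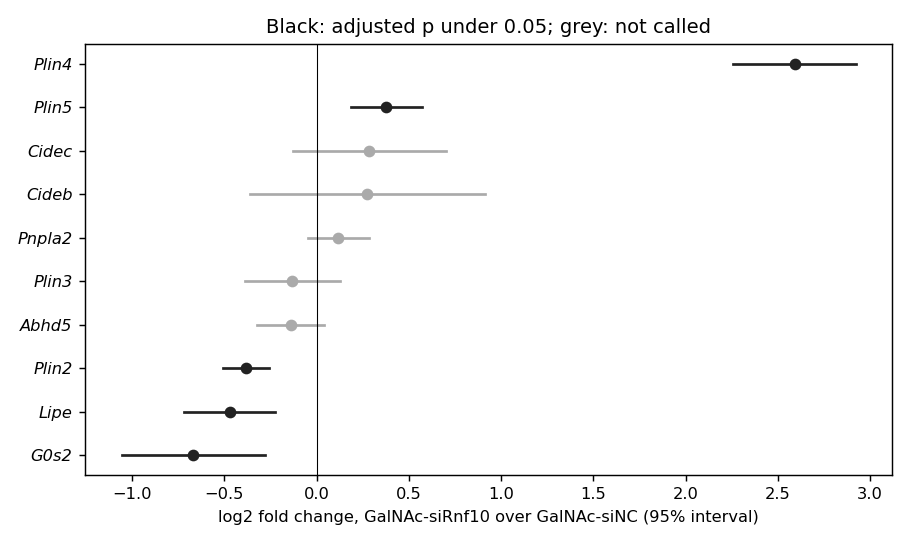
Log2 fold change of GalNAc-siRnf10 over GalNAc-siNC (horizontal axis) with its 95% interval for the 10 genes, ordered by size; black marks an adjusted p under 0.05 and grey genes that were not called. *Plin4*, at 2.59, stands apart from the other 9, which lie between -0.67 and 0.38.

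The CIDE genes were not called. *Cideb* (ENSMUSG00000022219, chr14:55754050-55758458 of GRCm38, minus strand) had normalized counts of 643, 1240 and 1067 with GalNAc-siNC and of 1155, 1197 and 1208 with GalNAc-siRnf10. The treated mice lay within the range of the controls, and control mouse 1 was again the lowest of all. The log2 fold change was 0.27 (95% interval -0.36 to 0.91, edgeR adjusted p = 0.563), and without control mouse 1 it was 0.04. Of the exon bases of *Cideb*, 1136 (76.3%) also lie in exons of *Nop9* on the opposite strand, which had a mean count of 655 against 1072 for *Cideb*. The strand setting of the counting is not given in the sources used here, so the value of *Cideb* is uncertain.

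*Cidec* (ENSMUSG00000030278, chr6:113424634-113435760 of GRCm38, minus strand), a CIDE gene that is induced in fatty liver, had normalized counts of 94.9, 69.1 and 83.0 with GalNAc-siNC and of 97.2, 87.0 and 118 with GalNAc-siRnf10. The groups overlapped. The log2 fold change was 0.29 (95% interval -0.13 to 0.70, edgeR adjusted p = 0.384), an interval that leaves room for a difference of up to 62.4%.

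Among the genes of lipolysis, the inhibitor and the second lipase were lower and the first lipase and its activator were not called. *G0s2* (ENSMUSG00000009633, chr1:193272161-193273217 of GRCm38, minus strand) had normalized counts of 509, 797 and 828 with GalNAc-siNC and of 466, 457 and 417 with GalNAc-siRnf10. All treated mice were below all control mice, but control mouse 1 lay nearer to the treated mice than to the other 2 controls. The level changed by -37.1% (95% interval -51.8% to -17.8%, log2 fold change -0.67, edgeR adjusted p = 0.0311). This call was lost without control mouse 2 (-0.58, adjusted p = 0.124) and without treated mouse 1 (-0.70, adjusted p = 0.0912), 2 (-0.69, adjusted p = 0.102) or 3 (-0.62, adjusted p = 0.116), and without control mouse 1 the log2 fold change was -0.86 (edgeR adjusted p = 1.12e-09).

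*Lipe* (ENSMUSG00000003123, chr7:25379527-25398710 of GRCm38, minus strand) had normalized counts of 461, 596 and 494 with GalNAc-siNC and of 400, 381 and 338 with GalNAc-siRnf10. The groups did not overlap. The level changed by -27.8% (95% interval -39.1% to -14.5%, log2 fold change -0.47, edgeR adjusted p = 0.0111). Without control mouse 2 the edgeR adjusted p was 0.0542 (log2 fold change -0.36), and without treated mouse 3 it was 0.0838 (log2 fold change -0.41). *Lipe* shares 918 exon bases with *4732471J01Rik* on the opposite strand, which had a mean count of 13.5 against 446 for *Lipe*.

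*Pnpla2* (ENSMUSG00000025509, chr7:141455198-141460743 of GRCm38, plus strand) had normalized counts of 2194, 2575 and 2079 with GalNAc-siNC and of 2427, 2507 and 2497 with GalNAc-siRnf10. Control mouse 2 was above all treated mice and the other 2 controls were below them. The log2 fold change was 0.12 (edgeR adjusted p = 0.362), with a 95% interval of -3.17% to 21.7% for the change in level. It passed the test with offsets for GC content and gene length (0.20, edgeR adjusted p = 0.0225) and without control mouse 2 (0.21, edgeR adjusted p = 0.0492).

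*Abhd5* (ENSMUSG00000032540, chr9:122351608-122381524 of GRCm38, plus strand) had normalized counts of 764, 749 and 769 with GalNAc-siNC and of 656, 740 and 672 with GalNAc-siRnf10. The treated mice were all below the control mice, though mouse 2 of the treated group was close to the lowest control. The log2 fold change was -0.14 (edgeR adjusted p = 0.312), with a 95% interval of -20.0% to 2.72% for the change in level.

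Levels of different genes were compared per length, as CPM (TMM-scaled counts as a share of the library, on the usual CPM scale) per kilobase of the deposited gene model. On this scale *Plin2* was the most abundant of the 10 genes in every mouse, at 105.6 ± 7.43 with GalNAc-siNC and 80.99 ± 0.747 with GalNAc-siRnf10 (SD, n = 3 mice). In the control mice *G0s2* (27.5 ± 6.80), *Pnpla2* (25.5 ± 2.90) and *Cideb* (22.3 ± 6.95) came next, and neighbours in this order overlapped between mice. Then came *Plin5* (11.1 ± 1.16) and *Plin3* (10.4 ± 1.92), which also overlapped, and below them *Abhd5* (4.30 ± 0.0594), *Lipe* (2.96 ± 0.402), *Cidec* (1.49 ± 0.234) and *Plin4* (0.297 ± 0.0592) did not overlap with their neighbours.

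With GalNAc-siRnf10, *G0s2* went from rank 2 to rank 4 by level per kilobase, at 17.3 ± 0.996 (SD, n = 3), below *Pnpla2* (27.6 ± 0.485) and *Cideb* (26.9 ± 0.629), whose mice overlapped with each other and not with those of *G0s2*. *Plin5* (14.4 ± 0.250) and *Plin3* (9.47 ± 0.482) no longer overlapped. *Abhd5* was at 3.897 ± 0.253. *Plin4*, at 1.80 ± 0.0854, remained last by mean, but its mice now overlapped with those of *Cidec* (1.83 ± 0.289), and *Cidec* with *Lipe* (2.13 ± 0.183). The order of the 10 genes over all mice was the same when the longest annotated transcript was used as the length.

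**Figure D3:**
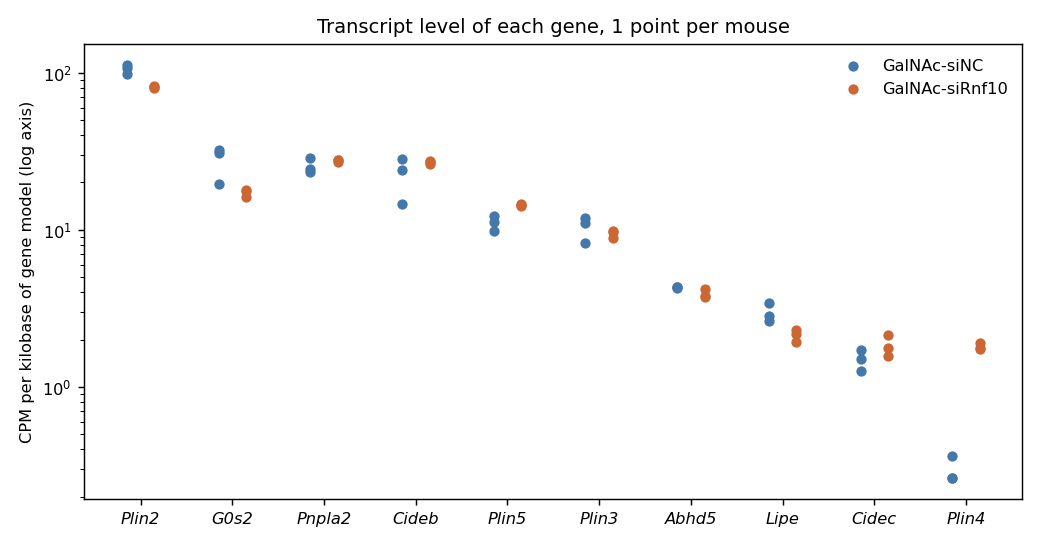
Level of each gene as CPM per kilobase of gene model (vertical log axis), 1 point per mouse, GalNAc-siNC in blue and GalNAc-siRnf10 in orange, ordered by the control mean. *Plin2* lies between 80.3 and 112.5 in every mouse, and *Plin4*, at 0.262 to 0.365 with GalNAc-siNC, lies at 1.74 to 1.90 with GalNAc-siRnf10, within the range of *Cidec*.

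Ratios within each mouse show the same levels without the scaling between libraries. They were built from genes whose changes are given above, so they are a description with no test. The ratio of *Pnpla2* to its inhibitor *G0s2*, per kilobase, was 1.243, 0.9316 and 0.7242 in the control mice and 1.503, 1.582 and 1.726 in the treated mice. The means were 0.9662 ± 0.261 and 1.604 ± 0.113 (SD, n = 3), and the groups did not overlap. For *Abhd5* to *G0s2* the means were 0.164 ± 0.0479 and 0.226 ± 0.0175, and the groups overlapped, since control mouse 1 was at 0.220 and treated mouse 1 at 0.206.

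The 4 perilipins summed to 127.3 ± 10.4 CPM per kilobase with GalNAc-siNC and 106.6 ± 0.819 with GalNAc-siRnf10 (SD, n = 3). *Plin2* made up 83.0% ± 1.01 of that sum in control mice and 76.0% ± 0.193 in treated mice. The share of *Plin5* was 8.68% ± 0.204 and 13.5% ± 0.338, that of *Plin3* 8.12% ± 0.896 and 8.88% ± 0.394, and that of *Plin4* 0.236% ± 0.0675 and 1.69% ± 0.0931. These shares depend on the length used. Per kilobase of gene model the means over all mice were 93.28 (*Plin2*), 12.71 (*Plin5*), 9.934 (*Plin3*) and 1.048 (*Plin4*). Per kilobase of the longest annotated transcript they were 173.5, 13.36, 10.32 and 1.156, which makes the share of *Plin2* larger. So *Plin2* transcripts remained the bulk of the perilipin transcripts in both groups, and the 6.02-fold difference of *Plin4* was one of a minor component.

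PLIN4, PLIN1 and hormone-sensitive lipase are abundant in adipocytes, and fat attached to a liver piece would carry their transcripts. None of the 7 adipocyte markers reached the filter on low counts. *Adipoq*, *Lep*, *Plin1* and *Ucp1* had 0 counts in all 6 mice, which allows up to 3 counts in a library, and the normalized counts of the 7 summed to between 1.74 and 3.95 with GalNAc-siNC and between 0 and 6.69 with GalNAc-siRnf10. Of 5 skeletal muscle markers, 3 were at 0 in every mouse and the sum was at most 1.74. *Plin4* had 290 or more reads in each treated mouse, and in the same libraries adipocyte and muscle markers were at or near 0. The cells that the *Plin4* reads came from were not tested.

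*Plin4*, *Plin5* and *Plin3* lie on the minus strand of chromosome 17 (GRCm38). *Plin4* spans 56100591 to 56109803, *Plin5* starts its gene model 1797 bases further on, at 56111601, and ends at 56117596, and *Plin3* spans 56277476 to 56292873. The stretch from *Hdgfl2* to *Plin3*, chosen after values were seen, holds 11 tested genes. Of these *Plin4* and *Plin5* were called higher and 2 others were called lower, beside 14.0% called among all tested genes. *Plin4*, *Plin5* and *Plin3* are in the stretch by its choice, so this count is a description only. *Lrg1*, which encodes a secreted acute-phase glycoprotein and follows *Plin5*, went from 59792 ± 12295 to 28628 ± 376 normalized counts (SD, n = 3; log2 fold change -1.06, edgeR adjusted p = 0.0125). *Dpp9*, a dipeptidyl peptidase gene, had a log2 fold change of -0.35 (edgeR adjusted p = 0.00348). *Hdgfl2*, which shares 17 exon bases with *Plin4* on the opposite strand, was at 854 ± 182 and 844 ± 9.67 normalized counts (SD, n = 3; log2 fold change -0.01, edgeR adjusted p = 0.96).

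**Figure D4:**
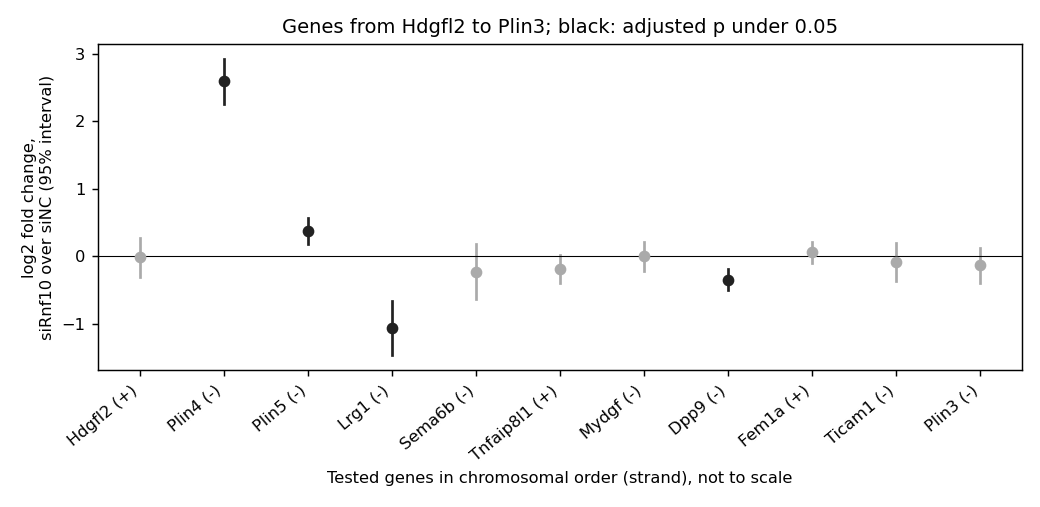
Log2 fold change of GalNAc-siRnf10 over GalNAc-siNC with its 95% interval (vertical axis) for the 11 tested genes from *Hdgfl2* to *Plin3*, in chromosomal order and not to scale, with the strand in brackets; black marks an adjusted p under 0.05. The adjacent *Plin4* and *Plin5* lie above 0, the next gene *Lrg1* lies at -1.06, and *Plin3* at the far end lies at -0.13.

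The bases upstream of the called perilipin genes are shown because *Plin4* and *Plin5* are neighbours that were both higher and *Plin2* was lower. They were taken from RefSeq (GRCm38.p6), minus strand, 5′ to 3′, from up to 250 bases before the RefSeq start, and bases inside the deposited gene model were left out. Capitals mark AGGTCA, the hexamer that nuclear receptors such as PPARs bind as spaced repeats, or TATAA, a core TATA sequence, on either strand. The windows are chr4:86670061-86670309 for *Plin2*, chr17:56109804-56110032 for *Plin4* and chr17:56117597-56117798 for *Plin5*.
Plin2: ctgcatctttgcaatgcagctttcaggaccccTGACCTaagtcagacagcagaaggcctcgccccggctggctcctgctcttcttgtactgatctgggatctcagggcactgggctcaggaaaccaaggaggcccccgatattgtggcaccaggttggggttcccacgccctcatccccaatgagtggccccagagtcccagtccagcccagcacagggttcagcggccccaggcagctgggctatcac
Plin4: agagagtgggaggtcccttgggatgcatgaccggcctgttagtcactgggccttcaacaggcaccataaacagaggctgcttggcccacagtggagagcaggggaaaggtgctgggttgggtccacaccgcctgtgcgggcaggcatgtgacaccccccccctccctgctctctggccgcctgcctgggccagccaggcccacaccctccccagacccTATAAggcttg
Plin5: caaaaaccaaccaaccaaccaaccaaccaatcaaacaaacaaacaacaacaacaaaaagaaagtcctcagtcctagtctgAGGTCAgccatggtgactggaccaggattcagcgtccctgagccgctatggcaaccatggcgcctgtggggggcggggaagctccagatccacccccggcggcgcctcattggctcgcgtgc
AGGTCA began 218 bases before the RefSeq start in *Plin2* and 170 bases before it in *Plin5*, and TATAA began 32 bases before it in *Plin4*. In *Plin5* TATAA began 27 bases before the RefSeq start, inside the first exon of the deposited gene model, and is not among the bases printed.

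Motifs were searched on both strands in the full 250 bases before 32851 annotated starts, which include all 10 genes. The hexamer was found before *Abhd5*, *Plin2* and *Plin5*, and before 14.0% of all starts. Any overlap with another motif was allowed, so the direct repeat below also counts as the hexamer. The direct repeat AGGTCANAGGTCA, the textbook PPAR element, was found before none of the 10 genes and before 0.0335% of all starts. TATAA was found before *Cideb*, *Plin4* and *Plin5* (22.8% of all starts), and the FOXO core GTAAACA (3.17%) and the E-box CACGTG (6.02%) were found before *Lipe*. These letters describe the windows and are not binding sites measured in these mice.

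The 3 tested genes whose log2 CPM was most like that of *Plin4* over the 6 mice were *Lpin1*, *Errfi1* and *Atp1b1*, with Pearson's r of 0.9993, 0.9993 and 0.9990. The points share their libraries and fall into the treatment groups, so no p is given for r. The 3 genes were picked for likeness to *Plin4*, which differed between the groups. Their own fold changes and p-values are therefore a description only. *Lpin1* encodes lipin 1, a phosphatidate phosphatase that makes diglyceride for triglyceride synthesis and acts as a transcriptional coactivator. It went from 1869 ± 195 to 7183 ± 163 normalized counts (SD, n = 3; log2 fold change 1.94, edgeR adjusted p = 1.01e-11). *Errfi1*, a feedback inhibitor of the EGF receptor, had a log2 fold change of 0.37 (edgeR adjusted p = 6e-05) and *Atp1b1*, a subunit of the sodium pump, one of 0.63 (edgeR adjusted p = 6.14e-06).

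Other genes of the pathway were taken from 4 lists with 40 tested genes in all, of which 7 were higher and 2 lower, beside 14.0% called among all tested genes. Without control mouse 1, 15 of the 40 were called, beside 2864 of all 14343 tested genes in that fit. The 15 were 3 other lipid droplet proteins, 5 lipases and hydrolases, 4 genes of hormonal control and 3 transcription factors. Of 16 other lipid droplet proteins 14 were tested, 1 was higher and 1 lower, and the median log2 fold change was 0.06. *Hsd17b11*, a droplet-bound dehydrogenase gene, had normalized counts of 3663, 3559 and 3997 in control mice and of 4877, 4676 and 4505 in treated mice (log2 fold change 0.33, edgeR adjusted p = 0.00243). *Acsl3*, an acyl-CoA synthetase gene of nascent droplets, had 1375, 1083 and 1206 in control mice and 973, 846 and 873 in treated mice (log2 fold change -0.45, edgeR adjusted p = 0.00332). The most abundant members of the list that were not called were *Mettl7b* (log2 fold change 0.14, edgeR adjusted p = 0.0945) and *Hsd17b13* (log2 fold change 0.12, edgeR adjusted p = 0.15). *Plin1* was at 0 in every mouse and *Cidea* had at most 3 counts.

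Of 10 other lipases and neutral lipid hydrolases 9 were tested, 3 were higher and 1 lower, beside 14.0% called among all tested genes. The median log2 fold change of the list was 0.19. The higher genes were liver hydrolases of the endoplasmic reticulum and the droplet. *Ces1d*, also known as triacylglycerol hydrolase, had normalized counts of 11334, 12204 and 12270 in control mice and of 18035, 18125 and 17918 in treated mice (log2 fold change 0.59, edgeR adjusted p = 6.12e-07). *Ces1g* had 4083, 4137 and 3835 in control mice and 5811, 5662 and 5806 in treated mice (log2 fold change 0.52, edgeR adjusted p = 1.01e-05). The treated mice were above the control mice with a wide gap in both, but *Ces1* genes are close paralogs whose reads the counting could have split, so their values are uncertain. *Aadac*, arylacetamide deacetylase, had a log2 fold change of 0.32 (edgeR adjusted p = 0.000771), and with offsets for GC content and length and the mouse number as a block it was 0.12 (edgeR adjusted p = 0.0691).

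*Mgll*, which encodes monoglyceride lipase, the last enzyme of lipolysis, had normalized counts of 5986, 6396 and 6201 in control mice and of 5537, 5233 and 5342 in treated mice (log2 fold change -0.21, edgeR adjusted p = 0.0247). The groups did not overlap, but *Mgll* was no longer called in 4 of the 6 fits with 1 mouse fewer, those without control mouse 3 or any 1 of the treated mice, and with offsets for GC content and length (-0.09, edgeR adjusted p = 0.176). *Lipa*, the lysosomal acid lipase gene, had a log2 fold change of -0.12 (edgeR adjusted p = 0.269) and *Pnpla8*, a phospholipase gene, one of 0.03 (edgeR adjusted p = 0.81). *Pnpla3* had at most 13 counts in a mouse and was not tested.

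All 8 genes of the hormonal control of lipolysis were tested, and 2 were higher, beside 14.0% called among all tested genes. Of the 2 higher genes, 1 is described. The count was 4 (2 higher and 2 lower) without control mouse 1, beside 2864 of all 14343 tested genes. It was 1 without control mouse 3 (1902 of 14396 genes) or without treated mouse 2 (1128 of 14386) or 3 (1128 of 14491). By edgeR it was 0 without treated mouse 1 (1053 of 14477 genes), where 2 genes of the list had an unadjusted p under 0.05. With at least 10 counts in every mouse it was 1 of 7 tested genes, beside 1941 of all 12799. *Pde3b*, the phosphodiesterase gene through which insulin lowers cAMP, had normalized counts of 2304, 2081 and 2294 in control mice and of 2769, 2648 and 2813 in treated mice (log2 fold change 0.30, edgeR adjusted p = 0.00594). Without treated mouse 1 its edgeR adjusted p was 0.054, and without treated mouse 3 it was 0.0599. The glucagon receptor gene *Gcgr* (log2 fold change -0.08, edgeR adjusted p = 0.437) and the insulin receptor gene *Insr* (-0.12, edgeR adjusted p = 0.239) did not pass the test.

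Of 9 transcription factors known to act on lipid droplet genes, all were tested and *Foxo1* alone was called, beside 14.0% of all tested genes. Without control mouse 1 the count was 3 (1 higher and 2 lower), beside 2864 of all 14343 tested genes. It was 2 without control mouse 3 (1902 of 14396 genes) and 3 with no filter on low counts (2324 of 24912). With offsets for GC content and length it was 2 (2443 of 14046 genes), or 3 with the block added (2351 of 14046). *Foxo1*, a factor that insulin signalling keeps out of the nucleus and that raises *Pnpla2* and lowers *G0s2* in other settings, had normalized counts of 1106, 944 and 953 in control mice and of 1445, 1457 and 1552 in treated mice. The groups did not overlap, and the log2 fold change was 0.57 (95% interval 0.40 to 0.74, edgeR adjusted p = 0.00011). Its call held in each of the 16 alternatives. *Hnf4a* (log2 fold change 0.08, edgeR adjusted p = 0.352) and *Rxra* (-0.06, edgeR adjusted p = 0.519), the most abundant of the others, did not pass. *Ppara*, the factor that drives *Plin2*, *Plin4* and *Plin5* when fatty acids bind it, had normalized counts of 3051, 3161 and 2814 in control mice and of 3015, 2993 and 3029 in treated mice (log2 fold change 0.00, 95% interval -0.14 to 0.14, edgeR adjusted p = 0.991). *Pparg*, of the same list, had normalized counts of 116, 116 and 164 in control mice and of 162, 192 and 194 in treated mice. The groups overlapped (log2 fold change 0.47, 95% interval 0.12 to 0.82, edgeR adjusted p = 0.0694). Both *Ppara* and *Pparg* were named after their values were seen.

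**Figure D5:**
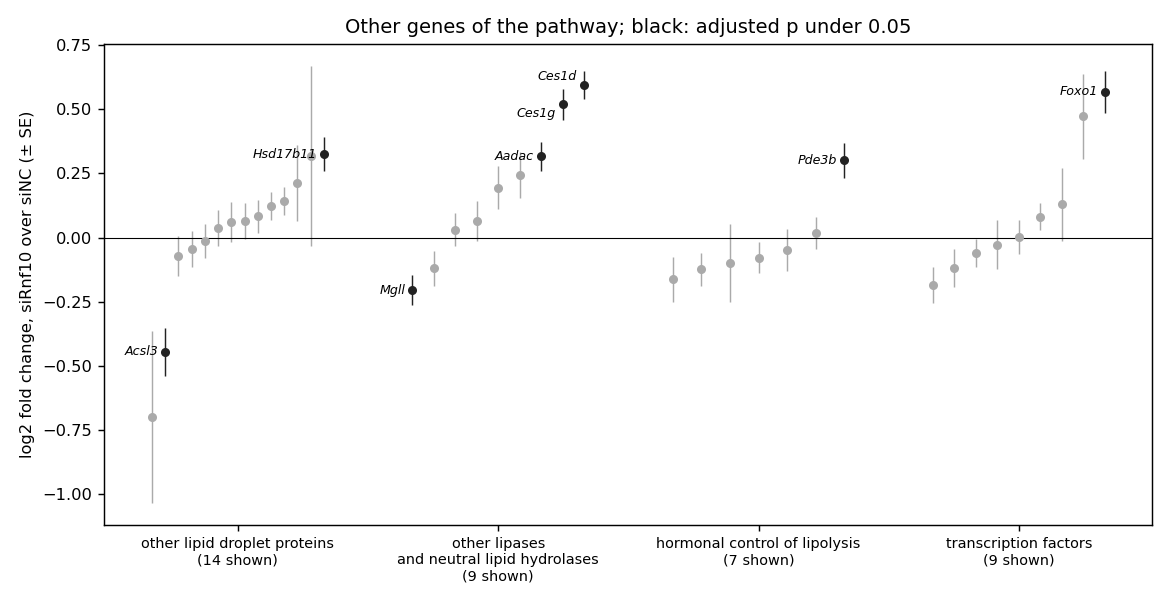
Log2 fold change of GalNAc-siRnf10 over GalNAc-siNC (vertical axis, bars ± SE) for the tested genes of the 4 other lists, leaving out 1, sorted within each list; black points with a name have an adjusted p under 0.05. The lipases *Ces1d* and *Ces1g* lie at 0.59 and 0.52, and *Foxo1* at 0.57, while most grey points lie near 0.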

How the data were processed

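Liver RNA of 6 mice was sequenced as paired-end stranded mRNA libraries. The authors used HISAT2 to map them to GRCm38, and the deposited values are raw counts per gene, not normalized, beside the length of each gene model. The counting tool, annotation release and strand setting are not given in the sources used here. The submitters' processing notes also name DESeq2. From these counts, genes were filtered by filterByExpr, scaled by TMM and tested with edgeR 4.0.16 in R 4.3.3 (quasi-likelihood F-test, robust fit, treatment as the only covariate), with Benjamini-Hochberg adjustment over all tested genes. Normalized counts are counts scaled to the mean effective library size. The biological coefficient of variation was 9.28%. Symbols and longest transcripts came from GENCODE M21, exons came with the deposited counts, and 346 identifiers had no symbol. The p-values measure the spread between 3 mice a group, with 1 library each.

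The 10 genes and all lists were chosen with earlier results of these data known. The text names *Rnf10*, all 10 genes, the called genes of 4 lists (1 gene is not reported here) with the 2 most abundant uncalled ones of each, and the 3 genes most like *Plin4*. *Ppara*, *Pparg*, the markers *Alb*, *Dcn*, *Apob*, *Lrat* and *Stab2*, and the genes neighbouring or overlapping the 10, were named after their values were seen. Alternatives were RLE and upper quartile scaling, no filter or a minimum of 10 counts per mouse, DESeq2 1.42.0, voom with sample weights (limma 3.58.1), offsets for GC content and length, the mouse number as a block, an adjusted p under 0.01, and leaving out each mouse. The tests were tested on simulated data.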

Additional observations from a re-analysis of the deposited data

How the results depend on the processing

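Of 160 values of the 10 genes under 16 alternatives, 147 kept their direction and their side of the threshold, 9 lost the call, 4 gained it and 0 reversed. *Plin2* and *Plin4* were called in every alternative. At an adjusted p under 0.01, 1042 of all genes and 3 of the 10 (*Plin2*, *Plin4* and *Plin5*) were called. Leaving out 1 mouse at a time, the number called ranged from 1053 to 2864 over all genes, from 3 to 6 over the 10 genes and from 6 to 15 over the 4 pathway lists, and *Rnf10* from -1.27 to -1.15. The lowest counts over the 10 genes, 3 each, came without GalNAc-siRnf10-treated mouse 2 (1128 of all genes) or 3 (1128), and without treated mouse 1 the count over all genes was 1053. Leaving out GalNAc-siNC-treated mouse 1 gave the highest counts of all 3. Fits without a mouse also have fewer samples and another set of tested genes, and the cause of these shifts was not tested. Mice of both groups share numbers but are different animals, and the correlation of deviations between same-numbered mice was -0.000993, 0.0272 and -0.0337, so the numbers do not pair them. With the mouse number as a replicate block, 1816 of all genes, 5 of the 10 and 9 of the pathway genes were called. The median log2 fold change of all genes stayed between -0.01 and 0.01 under every scaling. Such scaling aims at a median near 0, so this value is no check of it. Depth limits *Cidec*, and *Plin4* in control mice, whose read counts were low.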
